A study of Homo sapiens with 16 samples.

Results

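The MAGE-A cancer-testis antigens were followed in 8 human cell lines before and after a treatment that combines a DNA demethylating drug with a histone deacetylase inhibitor. The members were the HG-U133A probe sets whose symbols in the platform's annotation include MAGEA1, MAGEA3, MAGEA4, MAGEA6, MAGEA8, MAGEA9, MAGEA10, MAGEA11 or MAGEA12, which gave all 9 genes, of 13119 named in the annotation, read by 9 of the 22283 probe sets in the table. A probe set is a group of short oligonucleotides that reads 1 transcript or several near-identical ones. Of the 9, 7 carried 1 symbol and 2 were shared, 1 by MAGEA3 and MAGEA6 and 1 by MAGEA9 and its copy MAGEA9B. MAGEA3 had no probe set of its own. The probe sets of MAGEA1, MAGEA6, MAGEA12 and the MAGEA3/MAGEA6 pair are of the type that Affymetrix marks as able to read related sequences, so signal from near-identical family members cannot be assigned to 1 gene.

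The labels give Karpas 299, SU-DHL-1, JB6 and FE-PD as ALCL lines. ALCL, anaplastic large cell lymphoma, is a T-lineage lymphoma marked by CD30. They give Jurkat, CCRF-CEM, Molt-4 and Molt-3 as T-cell lymphoma or leukaemia lines. Each line was hybridised once untreated and once after 6 days in 1 µM 5-aza-2′-deoxycytidine (5-aza-dC) with 625 nM trichostatin A (TSA) present for the last 24 hours, which gave 16 arrays in 4 groups of n = 4 lines. Where the values of 4 lines follow each other below, the ALCL lines are in the order FE-PD, JB6, SU-DHL-1, Karpas 299 and the T-cell lines in the order CCRF-CEM, Jurkat, Molt-3, Molt-4. No group received 1 of the drugs alone, and none of the sources used here describes a vehicle control, so the effects of the 2 drugs cannot be told apart.

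MAGE-A genes lie in clusters on the long arm of the X chromosome and are normally transcribed in male germ cells, while in most other adult tissues their promoters are methylated and silent. Many tumours express them, and peptides from their proteins are presented to cytotoxic T cells, which made the family a target for vaccines and engineered T cells. MAGE proteins also bind RING-type ubiquitin ligases, as MAGEA3 and MAGEA6 do with TRIM28. 5-aza-dC is built into DNA and traps DNA methyltransferases, and TSA blocks histone deacetylases, so both act on the silencing that these promoters are known for.

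RefSeq promoters, on build GRCh38.p14 and running from 250 bases before to 50 after the annotated start, were matched by symbol for 7 of the 9 genes, in 12 windows. MAGEA1 and MAGEA10 had no entry in the table. The longest run of letters present in a window of each of these 7 genes was GGATGTGAC. It is shown first because it is what promoters of members with large and with small treatment effects had in common. Below, each line gives 40 bases of the gene's first window holding it, 5′ to 3′ on the gene's strand, with the shared run in capitals.
MAGEA3, chrX:152698694-152698733, plus strand: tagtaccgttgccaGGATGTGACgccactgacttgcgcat
MAGEA6, chrX:152769750-152769789, minus strand: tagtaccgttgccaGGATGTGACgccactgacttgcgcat
MAGEA12, chrX:152733731-152733770, plus strand: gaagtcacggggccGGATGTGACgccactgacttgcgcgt
MAGEA4, chrX:151912440-151912479, plus strand: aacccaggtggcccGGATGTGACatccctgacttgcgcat
MAGEA9, chrX:149781898-149781937, plus strand: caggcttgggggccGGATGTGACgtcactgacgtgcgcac
MAGEA8, chrX:149881157-149881196, plus strand: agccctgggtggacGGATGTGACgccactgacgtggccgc
MAGEA11, chrX:149712033-149712072, plus strand: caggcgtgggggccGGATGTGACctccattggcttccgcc

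The run began 12 to 20 bases before the annotated start in MAGEA4, MAGEA8, MAGEA9, MAGEA11 and MAGEA12, and 86 bases before it in MAGEA3 and MAGEA6. On either strand, GGATGTGAC was present in 8 of the 12 member windows and in 106 of all 35116 promoters of the table (0.302%). Of those 106, 17 belonged to MAGE or CSAG genes and 89 to others. The run was picked because all 7 genes share it, so its share among members is a description only. The 40-base windows of MAGEA3 and MAGEA6 were identical at 40 of 40 bases, as were their whole promoters. MAGEA3 and MAGEA12 matched at 29 of 40 bases, MAGEA3 and MAGEA8 at 24, and MAGEA3 and MAGEA11 at 18.

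CpG dinucleotides, the sites that DNA methyltransferases modify, were spread unevenly over the family. The 250 bases before the start are printed for MAGEA3, whose sequence MAGEA6 shares, for MAGEA12, and for MAGEA8, whose treatment effect was small, with each CpG in capitals.
MAGEA3, chrX:152698544-152698793, plus strand: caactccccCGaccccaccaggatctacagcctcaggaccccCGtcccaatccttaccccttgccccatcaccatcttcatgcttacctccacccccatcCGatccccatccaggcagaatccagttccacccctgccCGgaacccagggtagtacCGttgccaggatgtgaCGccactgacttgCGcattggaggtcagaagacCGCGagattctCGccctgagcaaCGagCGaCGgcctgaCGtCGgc
MAGEA12, chrX:152733507-152733756, plus strand: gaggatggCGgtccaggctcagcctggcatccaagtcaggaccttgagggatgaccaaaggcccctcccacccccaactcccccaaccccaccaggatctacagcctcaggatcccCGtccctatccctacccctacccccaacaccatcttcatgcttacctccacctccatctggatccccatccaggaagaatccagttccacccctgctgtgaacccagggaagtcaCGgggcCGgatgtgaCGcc
MAGEA8, chrX:149880933-149881182, plus strand: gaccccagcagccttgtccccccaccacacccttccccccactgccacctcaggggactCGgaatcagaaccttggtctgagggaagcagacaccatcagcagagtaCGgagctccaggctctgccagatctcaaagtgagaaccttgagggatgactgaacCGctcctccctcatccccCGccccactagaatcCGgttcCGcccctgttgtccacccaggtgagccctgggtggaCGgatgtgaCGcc

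These 250 bases held 15 CpGs for MAGEA3, 5 for MAGEA12 and 8 for MAGEA8. Over the full windows the count ran from 9 for the first MAGEA12 window to 21 for MAGEA11, beside a median of 14 over all promoters. The counts and the effects did not follow 1 order. MAGEA11, with the highest count, had the smallest mean treatment effect, 0.28, MAGEA6 with 19 CpGs had the largest, 3.40, and MAGEA12 rose by 2.68. Both strands were searched for motifs. CCGGAA, a form of the ETS-factor motif, was present in the windows of MAGEA3 and MAGEA6, in 2 of 12, and in 17.2% of all promoters. ACCGGAAG, a longer form that contains CCGGAA, was in 0 of 12 and in 2.17% of all. The related form CCGGAT was not searched for. It can be read across the start of the shared run in the printed windows of MAGEA12, MAGEA4, MAGEA9 and MAGEA11. The SP1 motif GGGCGG was in 7 of 12 windows, from 4 of the 7 genes, and in 45.0% of all promoters. TATAAA was in 0 of 12 and in 11.5% of all promoters.

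Treated arrays differed from untreated ones beyond single genes. The 28S ribosomal RNA control reached 12.05 to 14.26 on the log2 scale on the treated arrays of Molt-3, Molt-4, FE-PD, SU-DHL-1 and JB6 (the 5 lines called 28S-rise lines here, with a rise above 2), and at most 8.15 in Karpas 299, CCRF-CEM and Jurkat. The 3′ minus 5′ difference of GAPDH, a sign of RNA quality, rose in 8 of 8 lines by 0.30 ± 0.22 (SD, n = 8 lines, exact sign-flip permutation test, two-sided, p = 0.00781, adjusted over 5 measures 0.0195). That of ACTB rose more, in 7 of 8 lines by 0.60 ± 0.39 (exact permutation p = 0.0156, adjusted 0.0260). The mean of the hybridisation spikes rose in 7 of 8 lines by 0.61 ± 0.63 (exact permutation p = 0.0391, adjusted 0.0391). The spread (SD) of values within an array fell in 8 of 8 lines by 0.16 ± 0.09 (exact permutation p = 0.00781, adjusted 0.0195), and was lowest on the treated arrays of JB6 (1.61) and Molt-4 (1.59). The labels were borne out by markers. On untreated arrays, 8 of 12 probe sets of T-cell genes were lower in ALCL lines and of 12 of ALCL genes 7 were higher and 2, both of FUT4, lower. No line had a replicate array in either condition, so single lines are described and not tested, and the order of neighbouring lines has no error. In RNA from whole cultures, expression in more cells and more RNA per cell cannot be told apart.

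On untreated arrays the family was set apart by 1 line. MAGEA12, MAGEA4, MAGEA9/MAGEA9B, MAGEA6, MAGEA1 and MAGEA3/MAGEA6 were highest in Jurkat, 6 of the 9 probe sets. For MAGEA4, MAGEA6, MAGEA9/MAGEA9B and MAGEA12 the Jurkat array stood at least 1 log2 unit above every other line, which was so for 0.581% of the 22215 probe sets tested. MAGEA12 and MAGEA4 had the widest gaps, at 4.73 and 4.00 log2 units above the next line.

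MAGEA12, a member recognised by T cells in melanoma, read 4.67, 4.65, 4.75 and 4.61 log2 units in the untreated ALCL lines. In the T-cell lines CCRF-CEM, Molt-3 and Molt-4 it read 4.90, 5.35 and 4.95, and in Jurkat 10.08. Jurkat was 5.24 log2 units above the mean of the other 7 lines, which is 37.8-fold. The other 7 lines lay within 1 log2 unit of each other. On the Jurkat array the MAGEA12 value exceeded 93.4% of all probe sets, and on the other untreated arrays at most 20.9%. Such a percentile places a value on its array, and probe sets differ in brightness at equal RNA.

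MAGEA4, a target of engineered T-cell receptors, read 5.32, 5.13, 5.00 and 4.52 in the untreated ALCL lines. It read 4.52, 4.56 and 4.42 in CCRF-CEM, Molt-3 and Molt-4, and 9.33 in Jurkat. Jurkat thus stood 4.54 log2 units, or 23.3-fold, above the mean of the other lines, and at the 87.3rd percentile of its array. Among those others, FE-PD, JB6 and SU-DHL-1 were higher than all 3 remaining T-cell lines.

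For the other members the Jurkat gap was smaller. MAGEA9/MAGEA9B read 8.43 in Jurkat and 5.90 to 6.66 in the other lines, a difference of 1.96 log2 units from their mean. MAGEA6 read 6.55 in Jurkat and 4.48 to 4.80 elsewhere, a difference of 1.95. MAGEA1, the founding member of the family, read 6.97 against 5.67 to 6.29 (1.12), and MAGEA3/MAGEA6 read 7.13 against 5.77 to 6.59 (0.87). MAGEA8, MAGEA10 and MAGEA11 did not share the pattern: Jurkat differed from the mean of the other lines by -0.16, 0.16 and -0.13 log2 units, and lay below the highest other line for all 3.

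**Figure D1:**
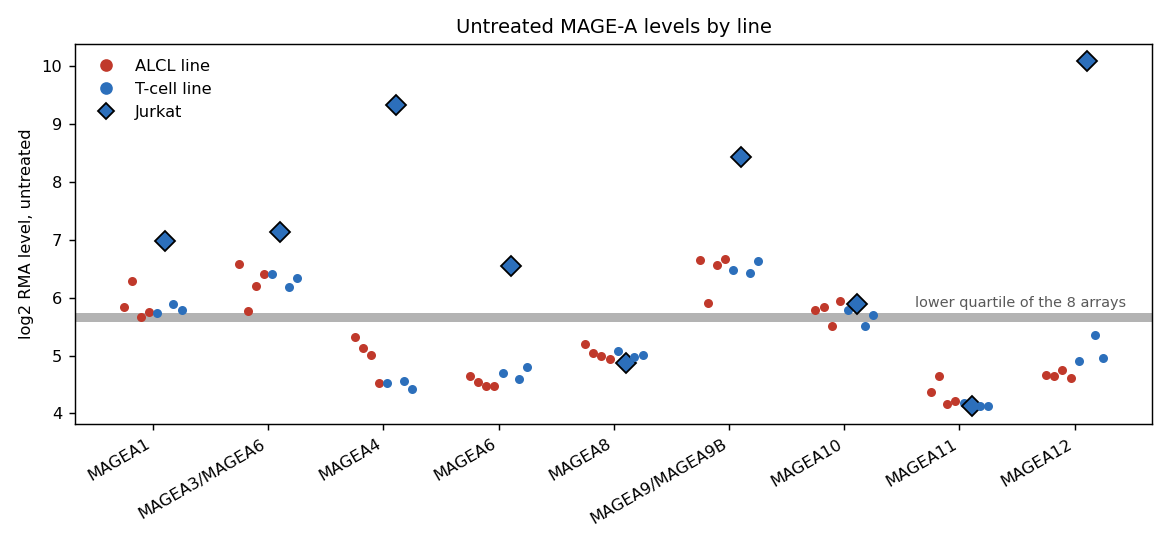
Untreated log2 RMA level (y axis) of the 9 MAGE-A probe sets (x axis) in 8 lines, 1 point per array, with ALCL lines in red, T-cell lines in blue and Jurkat as a diamond; the grey band spans the lower quartiles of the 8 arrays. Jurkat reads 10.08 for MAGEA12 and 9.33 for MAGEA4, while the other lines read at most 5.35 and 5.32.

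Between the cell types, untreated levels did not differ for any member by the test used. In limma, with Benjamini-Hochberg adjustment over all probe sets, 0 of 9 members passed an adjusted p of 0.05, beside 7.31% of all probe sets called. At an unadjusted p of 0.05 it was 0 of 9 members, beside 5251 of all 22215 probe sets. The members' median difference, ALCL minus T-cell, was -0.27, against 0.04 over all probe sets, and it changed sign, to 0.020, without Jurkat. For MAGEA12 the ALCL mean was lower by 1.65 ± 1.09 log2 units (SE; limma adjusted p = 0.395). For MAGEA4 it was lower by 0.71 ± 1.06 (limma adjusted p = 0.712). Both estimates rest on Jurkat: without it MAGEA4 was higher in ALCL lines by 0.49 (limma adjusted p = 0.195; range over all alternatives 0.0835 to 0.846) and MAGEA12 was lower by 0.40 (limma adjusted p = 0.141; range 0.0213 to 0.813).

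After treatment all 9 probe sets were higher than before in 8 of 8 lines, which was so for 14.4% of all probe sets. Some of these rises were close to none: MAGEA11 changed by 0.0051 in JB6 and 0.011 in FE-PD, and MAGEA8 by 0.036 in FE-PD. In the fit of all lines 9 of 9 were called higher, beside 28.1% of all probe sets (limma, adjusted p below 0.05, cell line as a block). The sizes of the effects separated the members more than the calls did. The mean change was at least 1 log2 unit for 6 of the 9, MAGEA1, MAGEA3/MAGEA6, MAGEA4, MAGEA6, MAGEA9/MAGEA9B and MAGEA12, beside 1.8% of all probe sets. The members' median effect was 1.70, against 0.11 over all probe sets. The 8 treated arrays lay above all 8 untreated ones, with no overlap, for MAGEA1, MAGEA3/MAGEA6, MAGEA8 and MAGEA10, 4 of 9 members, beside 2.54% of all probe sets.

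**Figure D2:**
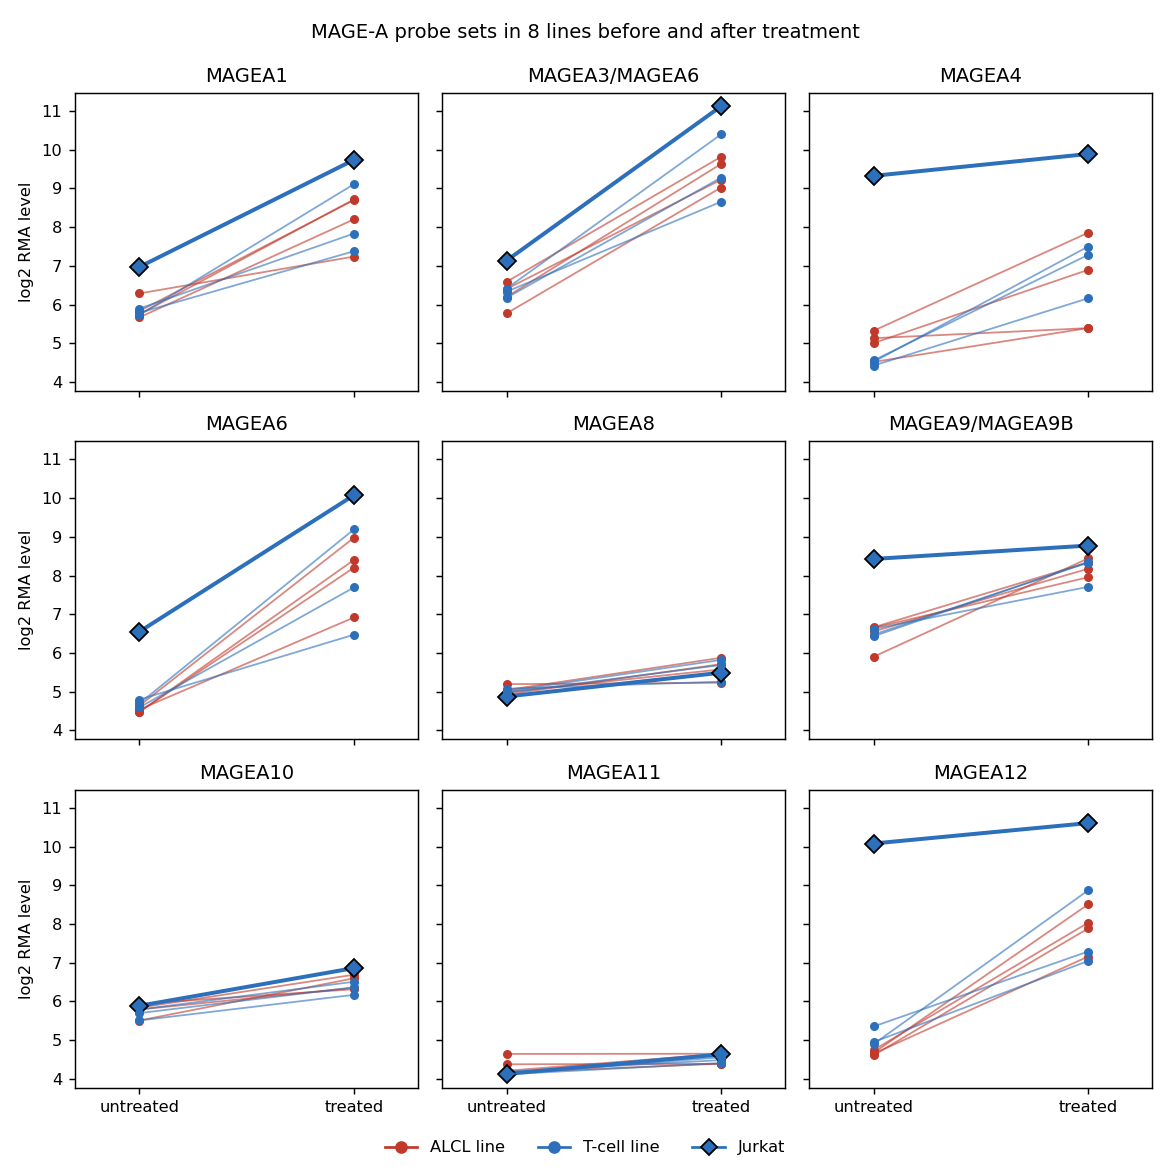
Log2 RMA level (y axis, the same in all panels) of each MAGE-A probe set before and after treatment (x axis), 1 line per cell line, with ALCL in red, T-cell in blue and Jurkat as diamonds. All slopes point up, though MAGEA11 in JB6 and FE-PD and MAGEA8 in FE-PD hardly rise. Jurkat starts at 10.08 for MAGEA12 and 9.33 for MAGEA4 and rises little there, while for MAGEA3/MAGEA6 it rises from 7.13 to 11.12.

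The probe set of MAGEA6 and the one shared by MAGEA3 and MAGEA6, genes whose products bind TRIM28, had the largest effects. MAGEA6 read 4.64, 4.54, 4.48 and 4.48 in the untreated ALCL lines, and 8.98, 6.92, 8.41 and 8.21 after treatment. In the T-cell lines it went from 4.70, 6.55, 4.60 and 4.80 to 9.20, 10.08, 7.69 and 6.47. Treated Molt-4 was the only treated array below an untreated one, that of Jurkat, so the conditions overlapped by 1 array. The mean effect was 3.40 ± 0.29 log2 units (SE, 8 lines), or 10.5-fold (limma adjusted p = 5.52e-05).

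The probe set shared by MAGEA3 and MAGEA6 read 6.59, 5.77, 6.20 and 6.40 in the untreated ALCL lines and 9.82, 9.02, 9.63 and 9.23 after treatment. In the T-cell lines it went from 6.41, 7.13, 6.17 and 6.33 to 10.39, 11.12, 9.28 and 8.65. Every treated array was above every untreated one, and treated Jurkat was the highest of the 16. The mean effect was 3.27 ± 0.18, or 9.63-fold (limma adjusted p = 8.96e-06), with a narrow range over lines, from 2.32 in Molt-4 to 3.99 in Jurkat.

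MAGEA12 came next. Its treated levels were 8.51, 7.16, 8.03 and 7.89 in the ALCL lines, and 8.87, 10.61, 7.29 and 7.05 in the T-cell lines. All 7 lines that had been low before treatment rose by 1.94 to 3.97 log2 units, and none of them reached the untreated level of Jurkat. Jurkat itself rose by 0.53. The mean effect over 8 lines was 2.68 ± 0.31, or 6.41-fold (limma adjusted p = 0.000195), and without Jurkat it was 2.95.

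MAGEA1, which binds the transcriptional regulator SNW1, read 5.83, 6.29, 5.67 and 5.75 in the untreated ALCL lines and 8.70, 7.24, 8.20 and 8.72 after treatment. In the T-cell lines it went from 5.74, 6.97, 5.90 and 5.79 to 9.11, 9.74, 7.84 and 7.38. The groups did not overlap, with the smallest rise in JB6 (0.95) and the largest in CCRF-CEM (3.37). The mean effect was 2.37 ± 0.25, or 5.18-fold (limma adjusted p = 0.000142).

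The rise of MAGEA4 also varied from line to line, between 0.26 and 2.98 log2 units, a spread (SD 1.03) exceeded by that of MAGEA12 (1.15). After treatment it read 7.86, 5.39, 6.90 and 5.39 in the ALCL lines, and 7.50, 9.89, 7.28 and 6.16 in the T-cell lines. CCRF-CEM, Molt-3 and FE-PD rose by more than 2 log2 units. JB6 rose by 0.26, Jurkat by 0.56 and Karpas 299 by 0.88. The mean effect was 1.70 ± 0.30, or 3.24-fold (limma adjusted p = 0.00200). It was not called without the block on cell line (adjusted p = 0.0688; range over alternatives 0.000991 to 0.201).

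MAGEA9/MAGEA9B read 6.65, 5.90, 6.56 and 6.66 in the untreated ALCL lines and 7.96, 8.44, 8.18 and 8.34 after treatment. In the T-cell lines it went from 6.48, 8.43, 6.43 and 6.63 to 8.33, 8.78, 8.35 and 7.71. The treated arrays of the 8 lines thus fell between 7.71 and 8.78, a narrower span than untreated, where Jurkat stood apart. The mean effect was 1.54 ± 0.19, or 2.92-fold (limma adjusted p = 0.000287), and Jurkat had the smallest change, 0.35.

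MAGEA10, MAGEA8 and MAGEA11 rose little. MAGEA10 ranged from 5.51 to 5.94 untreated (median 5.79) and from 6.17 to 6.86 treated (median 6.44), a mean effect of 0.74 ± 0.09 (limma adjusted p = 0.000334). MAGEA8 ranged from 4.88 to 5.20 untreated (median 5.00) and from 5.23 to 5.88 treated (median 5.63), an effect of 0.57 ± 0.11 (limma adjusted p = 0.00313). These 2 probe sets showed no overlap between conditions despite effects below 1 log2 unit. MAGEA11, known as a coregulator of the androgen receptor, ranged from 4.12 to 4.65 untreated and from 4.39 to 4.65 treated, an effect of 0.28 ± 0.08 (limma adjusted p = 0.0177), and its conditions overlapped. MAGEA11 was not called under quantile normalization (limma adjusted p = 0.157) or median centring (0.0726). After treatment MAGEA8 exceeded at most 25.3% of the probe sets on any array and MAGEA11 at most 9.5%. MAGEA8 rose most in JB6 (0.83) and Molt-4 (0.81), whose lower quartiles went from 5.65 to 5.86 and from 5.62 to 5.87. It rose least in FE-PD (0.036), whose lower quartile went from 5.73 to 5.72. In Karpas 299 it rose by 0.78, with a lower quartile from 5.66 to 5.74. A link between the rise of MAGEA8 and these shifts was not tested. When arrays were centred on the hybridisation spikes, which shifted the median of all probe sets from 0.11 to -0.51, 6 of 9 members were called higher, beside 1.01% of all probe sets, and 0 lower. The effects of MAGEA10, MAGEA8 and MAGEA11 were then 0.12, -0.044 and -0.34, above that shift but no longer called.

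**Figure D3:**
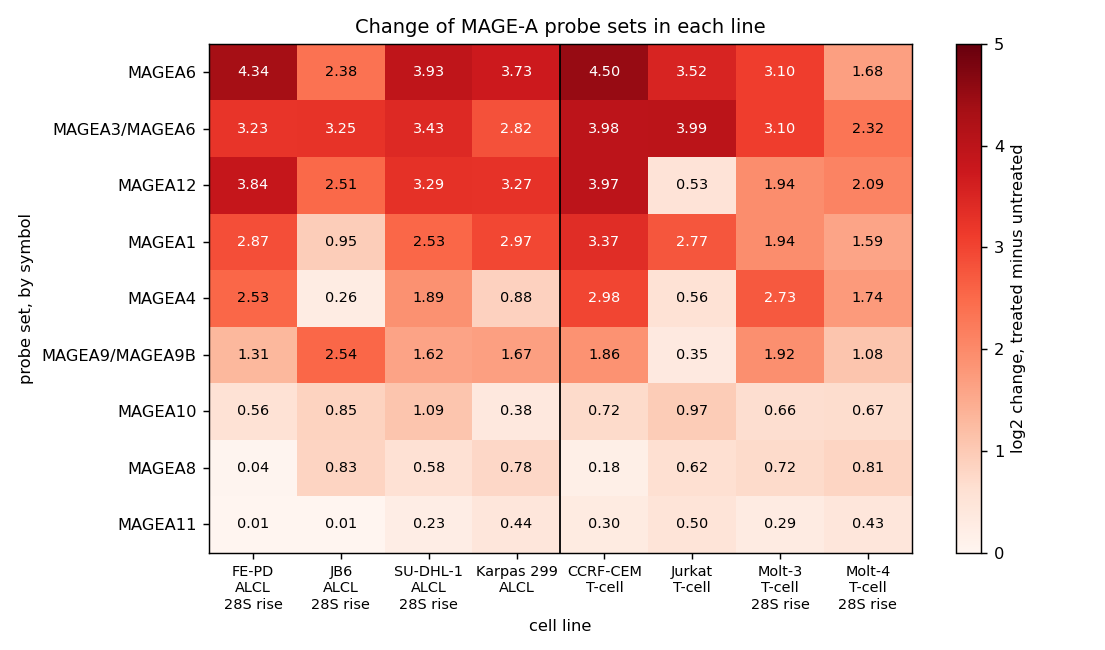
Log2 change, treated minus untreated (colour and printed value), of each MAGE-A probe set (rows) in each cell line (columns, ALCL left of the black line, T-cell right), with the 28S-rise lines marked. Changes above 3 lie mostly in MAGEA6, MAGEA3/MAGEA6 and MAGEA12, and Jurkat has 0.53, 0.56 and 0.35 for MAGEA12, MAGEA4 and MAGEA9/MAGEA9B.

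The lines differed in how much of the family rose. The median change over the 9 probe sets was 2.53 in FE-PD, 0.95 in JB6, 1.89 in SU-DHL-1 and 1.67 in Karpas 299. It was 2.98 in CCRF-CEM, 0.62 in Jurkat, 1.94 in Molt-3 and 1.59 in Molt-4. Between 3 members (Jurkat) and 7 (SU-DHL-1) of 9 rose at least 2-fold in a line, beside 2.71% to 6.33% of all probe sets. Jurkat combined the lowest median change with the highest treated level for 7 of 9 members. MAGEA3/MAGEA6, MAGEA6 and MAGEA1 rose there by 3.99, 3.52 and 2.77. Molt-4 had the lowest treated level for 4 of 9 members.

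The rise of the 28S control did not divide the members evenly. In the 3 lines without that rise the mean change was larger for MAGEA1 (3.04 ± 0.31, SD, against 1.98 ± 0.76 in the 5 lines with it), MAGEA6 (3.92 ± 0.51 against 3.08 ± 1.09), MAGEA3/MAGEA6 and MAGEA11. It was larger in the 5 lines for MAGEA4, MAGEA8, MAGEA9/MAGEA9B, MAGEA10 and MAGEA12. For MAGEA4, MAGEA9/MAGEA9B and MAGEA12 that order depends on Jurkat, 1 of the 3 lines, which rose by 0.56, 0.35 and 0.53. In Karpas 299 they rose by 0.88, 1.67 and 3.27 and in CCRF-CEM by 2.98, 1.86 and 3.97. The means of the 5 lines were 1.83 ± 0.97, 1.69 ± 0.57 and 2.73 ± 0.81. In a fit of the 3 lines alone MAGEA1, MAGEA3/MAGEA6 and MAGEA6 were called, 3 of 9, beside 8.31% of all probe sets (limma), with 8 of 9 at an unadjusted p below 0.05, beside 27.5%.

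Some members changed together over lines and others did not. Over the 8 changes, which share no array, Pearson's r was 0.876 for MAGEA1 with MAGEA6 and 0.654 for MAGEA3/MAGEA6 with MAGEA6, probe sets that may read each other's transcripts. It was 0.498 for MAGEA4 with MAGEA12, -0.379 for MAGEA1 with MAGEA9/MAGEA9B and -0.771 for MAGEA6 with MAGEA8. With 8 points per pair these are descriptions.

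The treatment effect was compared between the cell types. In the T-cell lines 9 of 9 members were called higher, beside 20.4% of all probe sets, with a median effect of 2.00 against 0.13 over all. In the ALCL lines 7 of 9 were called, beside 6.69% of all probe sets, with a median of 1.79 against 0.08. MAGEA6 was the member with the largest effect in ALCL lines (3.59 ± 0.42, limma adjusted p = 0.000826), and MAGEA3/MAGEA6 in T-cell lines (3.35 ± 0.25, limma adjusted p = 7.49e-05). MAGEA4 and MAGEA11 were the 2 members not called in ALCL lines, at 1.39 ± 0.43 (limma adjusted p = 0.0515; range over alternatives 0.0294 to 0.824) and 0.17 ± 0.11 (limma adjusted p = 0.300). Leaving out 1 line changed the call of 3 members. In T-cell lines MAGEA8 and MAGEA11 were not called without Jurkat, Molt-3 or Molt-4 (limma adjusted p 0.0545 to 0.0885 and 0.0729 to 0.0927). In ALCL lines MAGEA8 was not called without JB6, SU-DHL-1, Karpas 299, Jurkat or Molt-3 (0.0519 to 0.146), and MAGEA4 was called without JB6 (0.0491) or without Jurkat (0.0294).

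That contrast in calls was not a tested difference. In the test of the difference itself, the interaction, 0 of 9 members were called, beside 1.23% of all probe sets. An unadjusted limma p below 0.05 was found for 0 of 9 members, beside 2667 of all 22215 probe sets. MAGEA12 had the widest difference: its effect was 3.23 ± 0.43 in ALCL lines and 2.13 ± 0.43 in T-cell lines, 1.09 ± 0.62 more in ALCL (limma adjusted p = 0.542). Without Jurkat the difference was 0.56 (limma adjusted p = 0.723; range over alternatives 0.124 to 1.00). For MAGEA4 the effect was 1.39 in ALCL and 2.00 in T-cell lines, 0.61 ± 0.61 less in ALCL (limma adjusted p = 0.757; range over alternatives 0.489 to 1.00). The MAGEA4 difference, ALCL minus T-cell, was -1.09 without Jurkat, -0.99 without FE-PD, -0.24 without JB6, -0.29 without CCRF-CEM and -0.37 without Molt-3. These standard errors are wide, so the test does not show that the effects were alike.

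**Figure D4:**
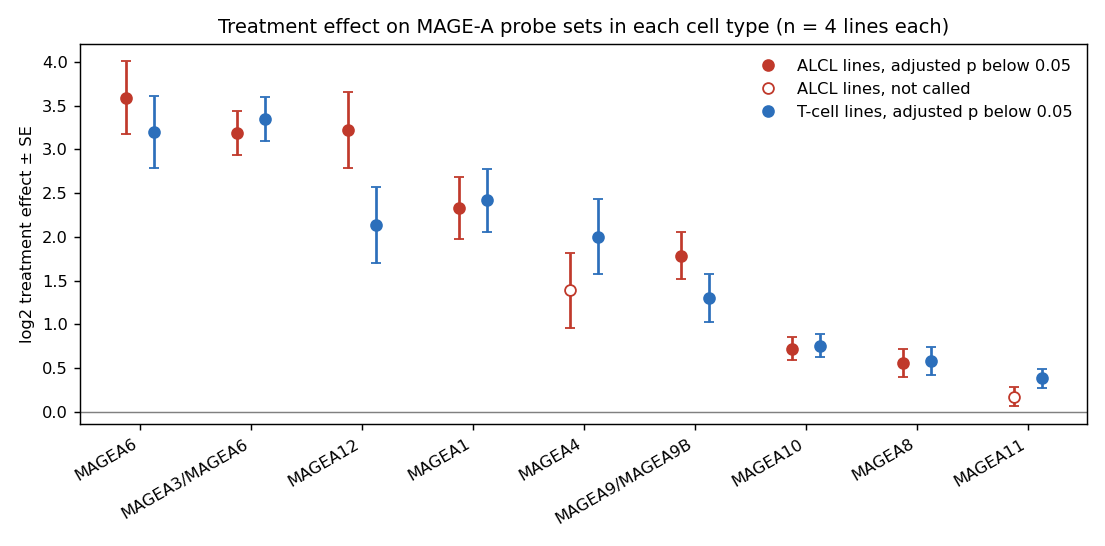
Log2 treatment effect (y axis, points, with bars of ± 1 SE from limma) of each MAGE-A probe set (x axis) in ALCL lines (red) and T-cell lines (blue), n = 4 lines each; open points were not called. The bars of the 2 cell types overlap for every probe set but MAGEA12, which has the widest gap, 3.23 against 2.13.

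Treated levels did not differ between the cell types by the test used either. Limma called 0 of 9 members, beside 2.27% of all probe sets. At an unadjusted p below 0.05 it was 0 of 9 members, beside 3201 of all 22215 probe sets. The members' median difference, treated ALCL minus treated T-cell, was -0.23, and it changed sign, to 0.10, without Jurkat.

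Other genes of the MAGE superfamily were measured by 19 probe sets for 18 genes. Of these, 9 rose (47.4%) and 0 fell in the fit of all 8 lines, with a median effect of 0.29. Beside them, 28.1% of all probe sets were called higher and 22% lower. MAGEB2, an X-linked germline member, rose by 2.77 ± 0.37 (limma adjusted p = 0.00039), from a mean of 5.12 to 7.90. MAGEA5P, a MAGE-A pseudogene whose probe set is shared with an unnamed locus, rose by 1.12 ± 0.15, MAGEL2 by 0.88 ± 0.11 and MAGEC1 by 0.49 ± 0.09. MAGEA5P shared the Jurkat pattern, with 7.95 there and at most 6.06 in the other untreated lines. The probe set of MAGEA2 and MAGEA2B, named after its values were seen as the remaining MAGE-A genes, rose by 1.40 ± 0.26 (limma adjusted p = 0.00243).

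Other cancer-testis antigens on the X chromosome moved in the same direction. Of 43 probe sets for 36 genes, 39 rose (90.7%, beside 28.1% of all probe sets) and 0 fell, with a median effect of 0.70. TKTL1, a transketolase-like gene, rose by 4.77 ± 0.29 in 1 probe set and 3.92 in the other. SSX1 and SSX2/SSX2B are transcriptional repressors involved in synovial sarcoma fusions. In 1 probe set each they rose by 2.66 ± 0.19 and 2.61 ± 0.18. The other probe set of SSX1 rose by 0.36, and those of SSX2/SSX2B by 2.65 and 1.76. Probe sets shared by several GAGE genes, named after their values were seen, rose by 3.75, 3.81, 4.05 and 4.19. These effects and those of TKTL1 were larger than that of any MAGE-A member (at most 3.40). The probe set of GAGE1 alone rose by 0.36. Of 30 probe sets of autosomal cancer-testis antigens, 16 rose (53.3%) and 6 fell (20%), beside 28.1% and 22% of all probe sets. The share that fell was thus near that of all probe sets. DAZL, which binds RNA in germ cells, rose by 2.61 ± 0.31, SPAG9 by 1.36 ± 0.15 in 1 probe set and PRAME by 0.99 ± 0.24 (limma adjusted p = 0.00909). The other SPAG9 probe sets rose by 0.76 and 0.65. PBK and TTK, kinases of dividing cells, fell by 2.50 ± 0.32 and 1.70 ± 0.22.

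Markers of male germ cells, in which the MAGE-A genes are normally active, were read beside these. Of their 14 probe sets 6 were called higher (42.9%) and 0 lower, beside 28.1% of all probe sets called higher. Markers of B cells and epithelial cells had 4 of 6 and 3 of 6 called higher, and myeloid markers 1 of 8. The rise was thus not particular to markers of germ cells. The mean log2 level over the 14 was 5.97 to 6.21 in the 8 untreated arrays, 6.31 to 6.49 in treated ALCL and 6.55 to 6.71 in treated T-cell arrays. DAZL, counted in both lists, and DDX4, the germ-cell helicase (0.70 ± 0.17), were among those that rose. The sperm chromatin genes PRM1, PRM2 and TNP1 had effects of 0.19, 0.12 and 0.12 and were not called.

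Among genes that act with the family or on it, more fell than rose. Of 38 probe sets of known MAGE-A partners 3 rose (7.89%) and 17 fell (44.7%), beside 28.1% and 22% of all probe sets. TRIM28, the ligase partner of MAGEA3 and MAGEA6, fell by 0.77 ± 0.17 (limma adjusted p = 0.0056) and in 8 of 8 lines. SKP2, a ubiquitin ligase subunit, fell by 1.59 ± 0.09, CUL4A, a cullin scaffold, by 1.02 ± 0.12, SNW1 by 0.90 ± 0.14 and TRIM27 by 0.89 ± 0.13, where 1 of its 3 probe sets was not called (-0.12).

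Of 53 probe sets of genes that silence or activate germline genes 10 rose (18.9%) and 25 fell (47.2%), beside 28.1% and 22% of all probe sets. DNMT1, the maintenance DNA methyltransferase and a target of 5-aza-dC, fell by 1.06 ± 0.17 (limma adjusted p = 0.00124), and HDAC1, a target of TSA, by 0.38 ± 0.12 (limma adjusted p = 0.0289). CTCF, an insulator protein, fell by 1.84 ± 0.22, ELF1, an ETS factor, by 1.39 ± 0.18, and 1 probe set each of EHMT2 and MBD3 by 0.77. The probe sets of both genes disagreed: the other one of EHMT2 had an effect of 0.01 and was not called, and of the others of MBD3 1 fell by 0.36 and 1 rose by 0.42. No probe set was matched to CTCFL.

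Genes that prepare peptides such as those of the MAGE-A proteins for MHC class I were also read. Of 34 probe sets 2 rose (5.88%) and 13 fell (38.2%), beside 28.1% and 22% of all probe sets. The immunoproteasome subunits PSMB10, PSMB8 and PSMB9 fell by 3.05 ± 0.26, 2.71 ± 0.21 and 1.73 ± 0.16, and 1 probe set of the peptidase ERAP1 by 1.21 ± 0.09, while the MAGE-A probe sets rose on the same arrays. Of the 5 ERAP1 probe sets 3 fell and 2 were not called, at 0.44 and 0.25.

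Other genes of Xq28, the chromosome band of the MAGE-A clusters, were not uniform in direction. Of 34 probe sets 11 rose and 7 fell, with a median effect of 0.15 against 0.11 over all probe sets. CETN2, a centrin, rose by 1.11 ± 0.14 and IDS, a lysosomal sulfatase, by 0.52 ± 0.09 in 1 probe set. Of the 9 IDS probe sets 6 were called higher and 3 not called. MTMR1, a myotubularin-related phosphatase, fell by 1.36 ± 0.11, with 3 of its 4 probe sets lower and 1 not called. A probe set shared by HAUS7 and the exonuclease TREX2 fell by 0.95 ± 0.11, and the other one they share had an effect of 0.01. Over all probe sets, 28.1% were called higher and 22% lower. With arrays centred on the hybridisation spikes, 17 of the 43 probe sets of X-linked cancer-testis antigens, 2 of the 19 of other MAGE genes and 2 of the 30 of autosomal antigens were called higher, while 24 of the 38 of partners and 35 of the 53 of silencing genes were called lower. Of the Xq28 probe sets 0 then rose and 7 fell, and of the autosomal antigens 8 fell. Over all probe sets 1.01% were then called higher, and 2.79% of all calls were higher. Lower calls were thus the rule under this scaling, and those of the lists are descriptions only. Under quantile normalization 12 silencing probe sets rose and 18 fell, and 8 of antigen presentation rose and 11 fell. The medians of these lists with spike centring ran from -0.94 for silencing genes to 0.08 for X-linked antigens, against 1.08 for the MAGE-A members and -0.51 over all probe sets.

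**Figure D5:**
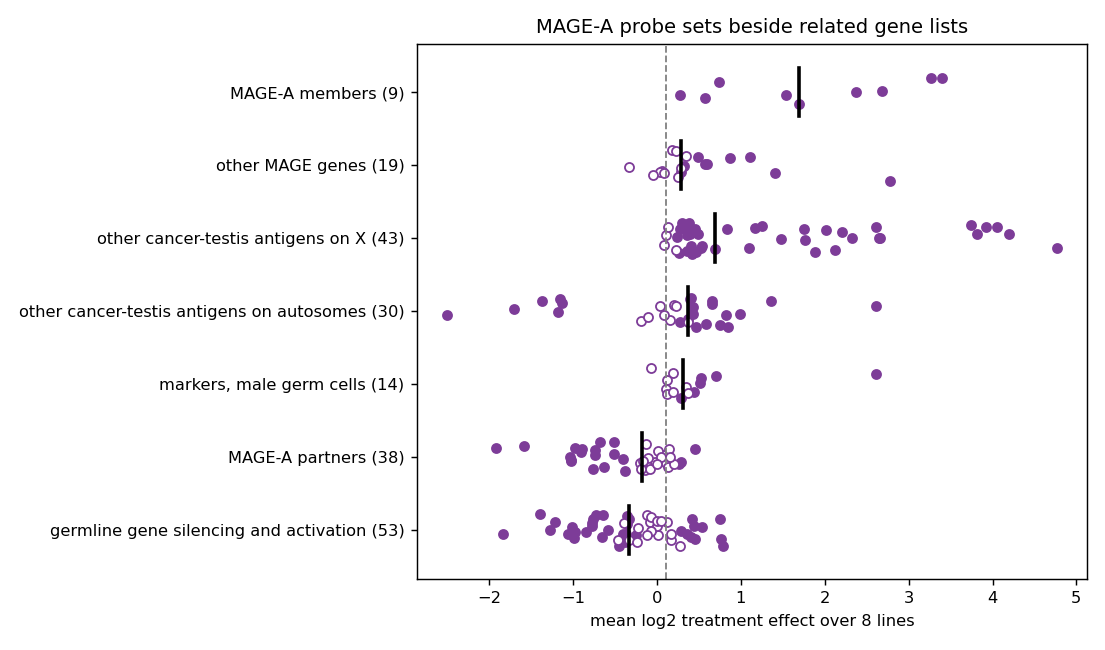
Mean log2 treatment effect over 8 lines (x axis) of each probe set, by gene list (rows, with the number of probe sets); filled points were called at an adjusted p below 0.05, black bars are list medians and the dashed line is the median of all probe sets. All 9 MAGE-A points are filled and to the right, with a median of 1.70, beside 0.29 for other MAGE genes and 0.70 for other X-linked cancer-testis antigens. The rightmost points of the X-linked list lie beyond every MAGE-A point.

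Outside the MAGE-A genes, 6205 probe sets with 1 symbol and an SD of at least 0.5 over the 16 arrays were compared with the family's profile, the mean of the centred values of the 7 single-symbol members. The 5 most alike over the 16 arrays were DNM1, a dynamin (r = 0.931), TKTL1 (0.912), GABARAPL2, an autophagy protein (0.906), ATP1B1, a sodium pump subunit (0.904), and DHRS2, a dehydrogenase (0.900). The points share the treated and untreated conditions, and all 5 rose in 8 of 8 lines, by 0.92 for GABARAPL2 to 4.77 for TKTL1. Over the 8 untreated arrays MAGEA4 was most like PMEPA1 (r = 0.983), PDGFC (0.981) and SMARCA1 (0.981), each with its highest untreated value in Jurkat. PMEPA1 read 9.30 there and at most 5.74 elsewhere, and PDGFC 9.39 and at most 4.70. Under treatment, where MAGEA4 rose by 1.70, PMEPA1 and PDGFC had effects of -0.13 and 0.05 and were not called. SMARCA1 rose in 8 of 8 lines, by 0.24 (limma adjusted p = 0.0319). MAGEA3/MAGEA6 was most like KIF5C (r = 0.953), LRRC41 (0.951) and ACP1 (0.945) over the same 8 arrays, and of these KIF5C rose with treatment while LRRC41 and ACP1 fell in 8 of 8 lines.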

How the data were processed

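Total RNA of 8 cell lines, untreated and treated, was hybridised to HG-U133A arrays. The authors deposited 1 log2 value per probe set and array, computed with RMA in R 2.10.1 as the submitters' processing notes state. RMA corrects background, normalizes between arrays and summarises the oligonucleotides of a probe set. Whether a probe set stood above background was not assessed. Probe sets that match several family members add up their transcripts. Values ran from 3.36 to 14.4, with array medians from 6.78 to 6.96. The number of arrays limits the precision. Of the probe sets, 19065 had 1 symbol in the platform's annotation, 1043 several and 2107 none, and 68 were controls. Gene lists were matched also through gene IDs and synonyms of RefSeq (GRCh38.p14).

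Groups came from the labels. Tests were two-sided and made with limma 3.58.1 (lmFit, eBayes) under R 4.3.3. P-values were adjusted over all 22215 non-control probe sets by Benjamini and Hochberg, and differences were called at an adjusted p below 0.05. Treatment effects and their difference came from 1 fit of 16 arrays, blocked on cell line (6 residual degrees of freedom). Levels between cell types used 8 arrays each. The pairing comes from the labels, which give the same line in both conditions. Deviations from the group means correlated at 0.314 to 0.632 within lines, and for Molt-4 (0.314) the treated array of another line, Molt-3, came closer (0.383). The tests count each line as an independent replicate, Molt-3 and Molt-4 included, and the donors of the lines were not examined. The fits were tested on simulated data.

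The members and the gene lists were chosen with earlier results of these data known. All member probe sets are named in the treatment comparisons. Of each list up to 4 called genes with the smallest adjusted p over all 8 lines are named, with DNMT1, HDAC1, TRIM28, CTCFL and PRAME whatever their values. Similar patterns are the 5 or 3 highest correlations described with them. Alternatives were other scalings, a filter on low values, 1 probe set per gene, other variance models, other treatments of the block, 1 cell type alone, each line left out, and the lines split by the 28S control. One, leaving out JB6 and Molt-4, was chosen after seeing the data. B-cell, myeloid and epithelial markers had 4 of 6, 1 of 8 and 3 of 6 probe sets called higher under treatment and none called lower.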

Additional observations from a re-analysis of the deposited data

Results flagged for a closer look

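Within groups of 4 lines, 54 sets of 4 values were searched for 1 line whose gap to the nearest other line exceeded Dixon's critical ratio. In a single set chance alone flags about 1 in 20. The sets share arrays and are not independent, so the number flagged cannot be judged against that rate. A line was flagged in 7 of the 54 sets. Of these, 5 were untreated Jurkat among the T-cell lines: MAGEA1 at 6.97 log2 units (others 5.74 to 5.90), MAGEA4 at 9.33 (others 4.42 to 4.56), MAGEA6 at 6.55 (others 4.60 to 4.80), MAGEA9/MAGEA9B at 8.43 (others 6.43 to 6.63) and MAGEA12 at 10.08 (others 4.90 to 5.35). JB6 stood low among the untreated ALCL lines for MAGEA9/MAGEA9B, at 5.90 against 6.56 to 6.66. CCRF-CEM stood high among the untreated T-cell lines for MAGEA11, at 4.185 against 4.12 to 4.13, a gap smaller than 0.1 log2 units.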

How the results depend on the processing

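Of the 9 members called in all 8 lines, 5 were called among the 60% of probe sets with the highest mean, since only 5 members pass that filter, and 3 in the lines without the 28S rise, where 3 lines are left. In T-cell lines the corresponding counts were 5 and 4 in place of 9, and 5 with arrays centred on the spikes. In T-cell lines 2279 of all probe sets were called without the 28S rise and 5491 with spike centring, in either direction. In ALCL lines the calls were lost when Karpas 299 was the lone ALCL line, assumed to vary like the others. With 1 line left that fit cannot decide calls, and its effects ran from 0.38 for MAGEA10 to 3.73 for MAGEA6. Leaving out 1 line gave 7 to 9 members called in T-cell lines, 6 to 7 in ALCL lines and 9 to 9 in all 8. Beside them, 4013 to 9549, 2186 to 4126 and 8254 to 11946 of all 22215 probe sets were called, in either direction. The spikes shifted the median of all probe sets to -0.53, -0.48 and -0.51 in T-cell, ALCL and all lines. Calls that were higher then fell from 52.6% to 2.26%, from 36.5% to 4.23% and from 56.1% to 2.79%. Under it MAGEA8 reversed to -0.088, -0.00033 and -0.044, and MAGEA11 to -0.29, -0.39 and -0.34, and between untreated cell types 1 member in place of 0 was called, MAGEA12 at -1.35 (limma adjusted p = 0.0213; range over alternatives 0.0213 to 0.813). Median centring gave 35.7% and 42.4% of calls higher in T-cell and all lines. The untreated MAGEA4 difference reversed to 0.49 without Jurkat and to 0.66 in the lines with the 28S rise (limma adjusted p 0.0835 to 0.846 over alternatives). With no replicate block, 7, 6 and 8 members were called in T-cell, ALCL and all lines. MAGEA4 and MAGEA12 lost their calls in T-cell lines, MAGEA12 in ALCL lines and MAGEA4 in all. In ALCL lines 2235 of all probe sets were then called, in place of 4072. Counts over all probe sets ranged from 2279 to 9596 in T-cell (8607 as reported), 0 to 4436 in ALCL (4072) and 1845 to 11946 in all lines (11142). Of the single values of members in the treatment comparisons, 161 of 183 alternatives in T-cell lines, 159 of 183 in ALCL lines and 161 of 174 in all lines kept the direction and the side of the threshold. The cause of these changes was not tested, other than where fewer probe sets or lines were left.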
